A study of Homo sapiens with 6 samples.

Results

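The genes described here are 39 SR proteins and their arginine/serine-rich relatives, out of 60483 gene identifiers in the count tables. They were chosen by name as a gene family, by no cutoff on a measured value, but with earlier results of these data known. All 39 were found in the tables, and 37 had enough reads to be tested, among 14732 tested genes in all. Messenger RNA was measured by poly(A)-selected RNA sequencing in 6 libraries of T98G cells, a long-established line grown from a human glioblastoma. The oeSRPK1 group (2 libraries) was transiently transfected with full-length SRPK1 cDNA, itself cloned from T98G, in the expression plasmid pcDNA3.1. The shSRPK1 group (2 libraries) was transiently transfected with a hairpin against SRPK1 in the plasmid pLKO.1. The NT group (2 libraries) was untreated. Both plasmids were delivered with a lipid reagent, and no library of cells given an empty plasmid was used here, so transfection and construct cannot be told apart in the comparisons with NT. oeSRPK1 and shSRPK1 cells were both transfected, but with different plasmids. Transient transfection leaves a mixture of cells with and without the plasmid. In such bulk libraries, fewer cells carrying a transcript and less of it per cell cannot be told apart. Replicates are described as biological, without saying that they were separate cultures, and p-values here reflect only how far these samples varied, part of which may be technical variation.

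SR proteins bind RNA through RNA recognition motifs and carry a tail of alternating arginine and serine residues, through which they recruit spliceosome components to exons. SRPK1, the kinase that the plasmids targeted, phosphorylates this tail in the cytoplasm, which lets the import receptor TNPO3 carry SR proteins into the nucleus, where CLK kinases phosphorylate them further. Many genes of the family control their own transcripts by splicing in an exon with a premature stop. A gene-level read count sees neither the phosphorylation nor which of a gene's transcripts was made.

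Reads counted in genes numbered 22691215 and 3891549 in oeSRPK1, 13650909 and 10792385 in shSRPK1 and 9891606 and 13634038 in NT, and 3 counts, taken as the floor of detection, stood for 0.135 to 0.776 normalised CPM (gene reads scaled for library size and composition). SRPK1 itself had 190.3 and 168 normalised CPM in oeSRPK1, 113 and 140.1 in shSRPK1 and 152 and 140.4 in NT. Its log2 fold change was 0.29 ± 0.14 in oeSRPK1 against NT (edgeR adjusted p = 0.175), -0.21 ± 0.14 in shSRPK1 against NT (edgeR adjusted p = 0.36) and 0.50 ± 0.14 in oeSRPK1 against shSRPK1 (edgeR adjusted p = 0.0377), where ± gives the standard error here and below. Only the last passed the threshold of 0.05, and it did not pass without oeSRPK1 1 (log2 fold change 0.37), oeSRPK1 2 (0.59), NT 1 (0.50) or NT 2 (0.50). In oeSRPK1, reads of the plasmid's cDNA could count toward SRPK1. The mesenchymal markers VIM, CD44 and FN1 were at 1126 normalised CPM or more in every library, while the glial markers GFAP, S100B and SOX2 had at most 1 read. The 6 skeletal muscle markers summed to 85.2 and 1043 normalised CPM in oeSRPK1, 0.378 and 4.59 in shSRPK1 and 0.291 and 0.141 in NT. Most of it was ACTA1, skeletal muscle actin, at 74.1 and 897 normalised CPM in oeSRPK1. Leukocyte, endothelial and epithelial markers each summed to under 1 normalised CPM in every library, and both hepatocyte markers were at 0. The 3 neuronal markers summed to 9.49 and 8.53 normalised CPM in oeSRPK1, 17.4 and 17.9 in shSRPK1 and 15.7 and 17.3 in NT. Their members went opposite ways, SNAP25 standing at 4.90 and 4.91 normalised CPM in oeSRPK1, 16.4 and 17.2 in shSRPK1 and 14.3 and 14.9 in NT, and SYT1 at 4.50 and 3.62 in oeSRPK1, 1.06 and 0.669 in shSRPK1 and 1.46 and 2.40 in NT. Mitochondrial genes took 2.84% and 3.14% of gene reads in oeSRPK1, 4.96% and 5.41% in shSRPK1 and 4.97% and 4.99% in NT, and what part this had in the results below was not tested. The high replicate of a tested member exceeded the low one by a median factor of 1.06 in oeSRPK1, 1.16 in shSRPK1 and 1.08 in NT.

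The 39 genes together took 0.568% and 0.568% of gene reads in oeSRPK1, 0.732% and 0.705% in shSRPK1 and 0.617% and 0.653% in NT. The share was highest in both shSRPK1 libraries and lowest in both oeSRPK1 libraries, and no library of one group fell among those of another. Levels can be set beside each other between genes only per length, here as mean normalised CPM per kb of annotated exon. On that scale the highest members in NT were SRSF1 at 65.1, SRSF11 at 62.3, LUC7L3 at 60.5 and SRSF2 at 60.3 CPM per kb, followed by SRSF6 at 56.4. The length holds every annotated exon base of a gene, so places depend on the annotation as well as on reads. In NT, SRSF1 (217.4 normalised CPM over 3340 bases) took place 1 and SRSF3 (219.2 normalised CPM over 7118 bases) place 14. In shSRPK1 the highest were LUC7L3 at 102.4 and SRSF1 at 100.2 CPM per kb. In oeSRPK1 the first 3 places were held by SRSF6 at 75.3, SRSF2 at 70.6 and SRSF1 at 70.6 CPM per kb, with LUC7L3 in place 7 at 40.0. Among tested members the lowest in every group were U2AF1, at 0.741 CPM per kb in oeSRPK1, 1.03 in shSRPK1 and 0.936 in NT, and SRSF8, at 3.76, 2.43 and 4.10 CPM per kb in the same groups. SRSF12, a minor SR-like protein, had 1 read in oeSRPK1 1 and none elsewhere, and SRRM4, which drives neuronal microexon splicing, had 1 read in NT 1 and none elsewhere.

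**Figure D1:**
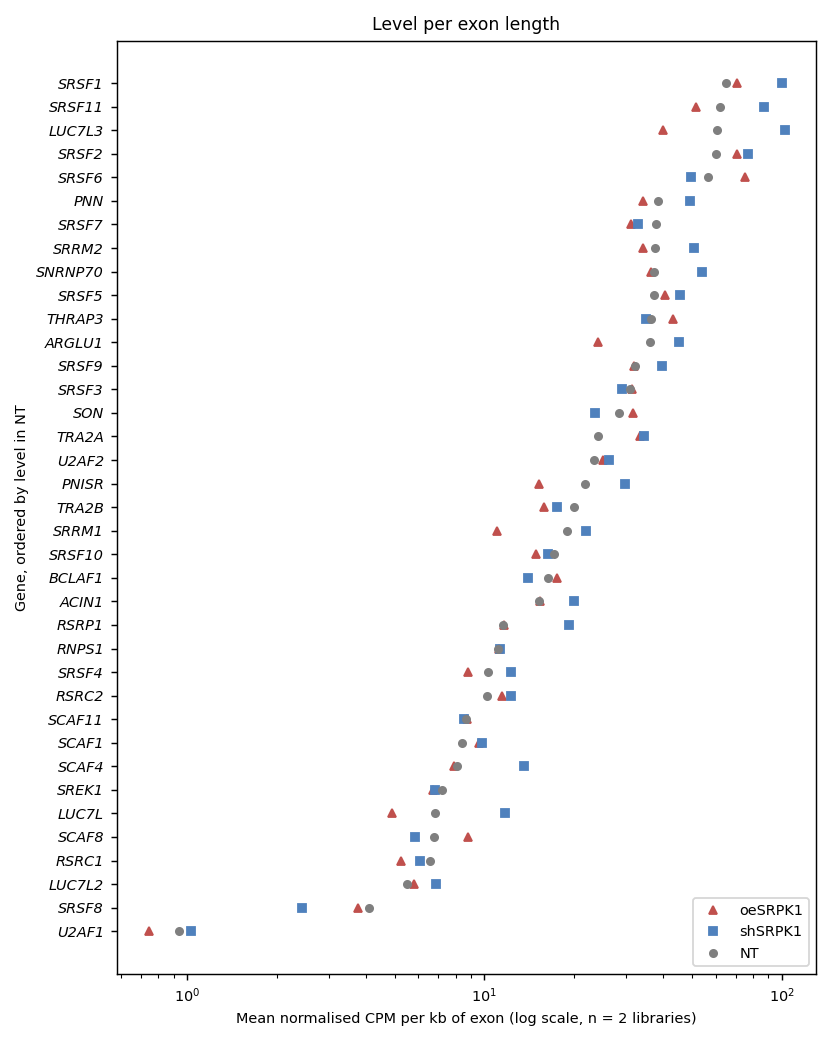
Mean normalised CPM per kb of exon (log axis, n = 2 libraries a group) of the 37 tested members, ordered by their level in NT. The squares of shSRPK1 lie to the right of the other symbols for SRSF1 (100.2 CPM per kb) and LUC7L3 (102.4 CPM per kb), and the triangle of oeSRPK1 lies to the right for SRSF6 (75.3 CPM per kb).

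Relative to the mean of the NT libraries, the median tested member stood at -0.04 and -0.06 (log2) in oeSRPK1 and at 0.25 and 0.16 in shSRPK1, against -0.04 and 0.04 in the NT libraries themselves. Above the NT mean were 14 and 18 of the 37 members in oeSRPK1 and 25 and 24 in shSRPK1. Over all tested genes, the medians lay between -0.00 and 0.02 in all 6 libraries.

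**Figure D2:**
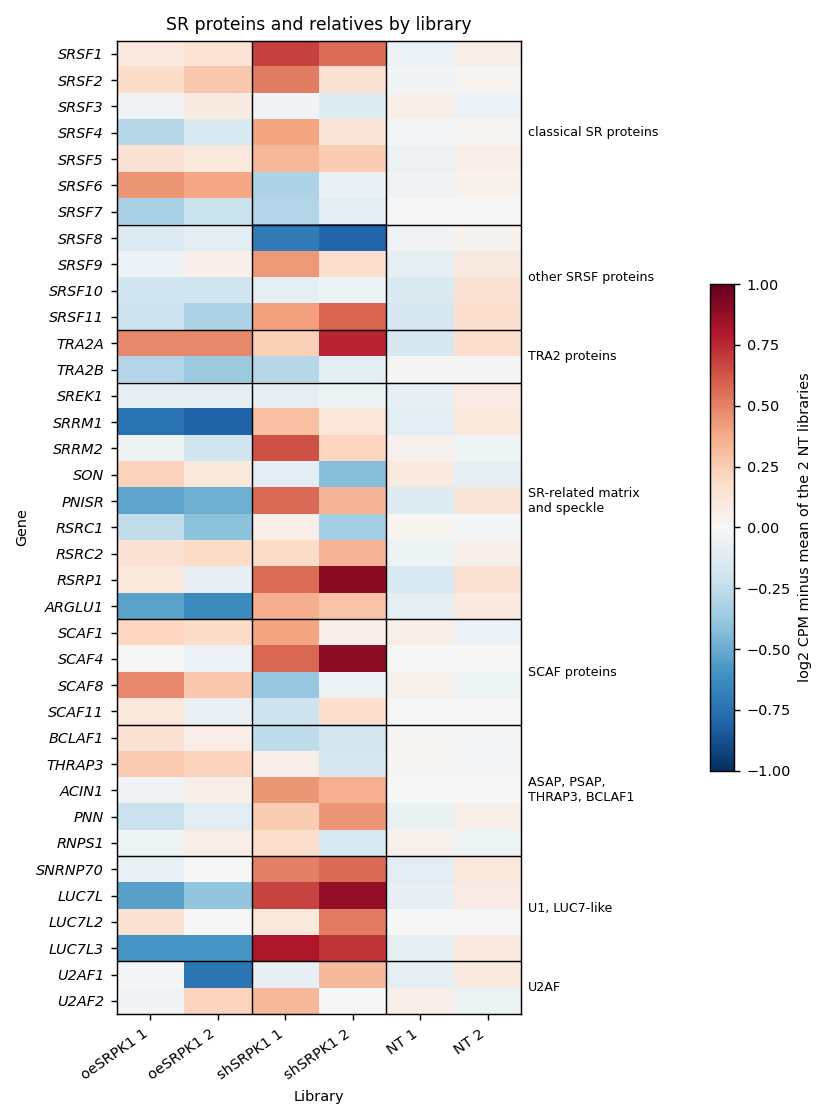
Log2 CPM of each tested member in each library minus the mean of the NT libraries (colour scale), grouped by role. In the shSRPK1 columns 25 and 24 of 37 members lie above the NT mean, and in the oeSRPK1 columns 14 and 18 do.

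With the SRPK1 hairpin, 6 members rose and 1 fell. The genes that rose were SRSF1, RSRP1, SCAF4, SNRNP70, LUC7L and LUC7L3, and SRSF8 fell, with absolute log2 fold changes from 0.53 to 0.78. These 7 calls (edgeR adjusted p under 0.05) were 18.9% of the 37 tested members, where 9.18% of all tested genes were called in shSRPK1 against NT (5.43% higher and 3.75% lower). The median log2 fold change was 0.26 over the members and 0.01 over all tested genes, and 17 members were higher and 1 lower at an unadjusted p under 0.05. The median standard error was 0.131 over the members and 0.182 over all tested genes. What part this had in the called shares was not tested. The limma-voom test called the same number in each direction (6 higher, 1 lower) and DESeq2 called 8 higher and 1 lower. All 7 calls were lost when any of oeSRPK1 1, oeSRPK1 2, NT 1 or NT 2 was left out, with edgeR adjusted p from 0.0604 to 0.381 for these genes. They were also lost when the fit held the shSRPK1 and NT libraries alone (edgeR adjusted p from 0.0635 to 0.105). All 7 were kept without shSRPK1 1 (15 calls in all) or without shSRPK1 2 (22 calls in all).

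With the SRPK1 expression plasmid, 5 members fell and edgeR called 0 higher. The genes that fell were SRRM1, PNISR, ARGLU1, LUC7L and LUC7L3, with log2 fold changes of -0.49 to -0.78. They were 13.5% of the tested members, where 20.6% of all tested genes were called in oeSRPK1 against NT (11.2% higher and 9.45% lower). The median log2 fold change was -0.01 over the members and -0.00 over all tested genes, with median standard errors of 0.133 and 0.1865. At an unadjusted p under 0.05, 3 members were higher and 7 lower. DESeq2 called 1 higher and 4 lower, limma-voom 1 higher and 5 lower, and the higher gene was SRSF6 in both. No call held without NT 2, oeSRPK1 1 or oeSRPK1 2, and only that of SRRM1 held without NT 1, with edgeR adjusted p from 0.0486 to 0.271 for the 5 genes. Without shSRPK1 1 or without shSRPK1 2, 13 members were called, these 5 among them, with 3 higher (SRSF6, SCAF8 and TRA2A) and 10 lower. With the oeSRPK1 and NT libraries alone in the fit, 4 were higher and 10 lower. The 5 genes differed between the oeSRPK1 libraries by a factor of at most 1.11, while the muscle marker sum differed by a factor of 12.2, and the part of the muscle transcripts in these results was not tested.

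Set directly against each other, the transfected groups differed in 17 members, of which 3 were higher and 14 lower in oeSRPK1 than in shSRPK1. SRSF6, SRSF8 and SCAF8 were higher. Lower were SRSF1, SRSF4, SRSF11, SRRM1, SRRM2, PNISR, RSRP1, ARGLU1, SCAF4, ACIN1, PNN, SNRNP70, LUC7L and LUC7L3. These calls were 45.9% of the tested members, where 22.8% of all tested genes were called in oeSRPK1 against shSRPK1 (11.5% higher and 11.3% lower). The median log2 fold change was -0.17 over the members and -0.00 over all tested genes, and 6 members were higher and 15 lower at an unadjusted p under 0.05. The median standard error was 0.133 over the members and 0.1865 over all tested genes, and its part in the called shares was not tested. DESeq2 called 2 higher and 14 lower, and limma-voom 3 higher and 14 lower. Of the 17 calls, 9 were kept without NT 1 and 9 without NT 2, 5 without oeSRPK1 2 (ARGLU1, LUC7L, LUC7L3, PNISR and SRRM1) and 1 without oeSRPK1 1 (LUC7L3). All 17 were kept without either shSRPK1 library, where 21 members were called. The 3 comparisons share libraries in pairs, so a gene's values in them are not independent. For all 29 calls of the 3 comparisons the libraries of the groups compared did not overlap. All 29 kept their direction under every one of the 15 alternative settings. Because the groups did not overlap, leaving out a library or changing the test could hardly have turned a direction.

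**Figure D3:**
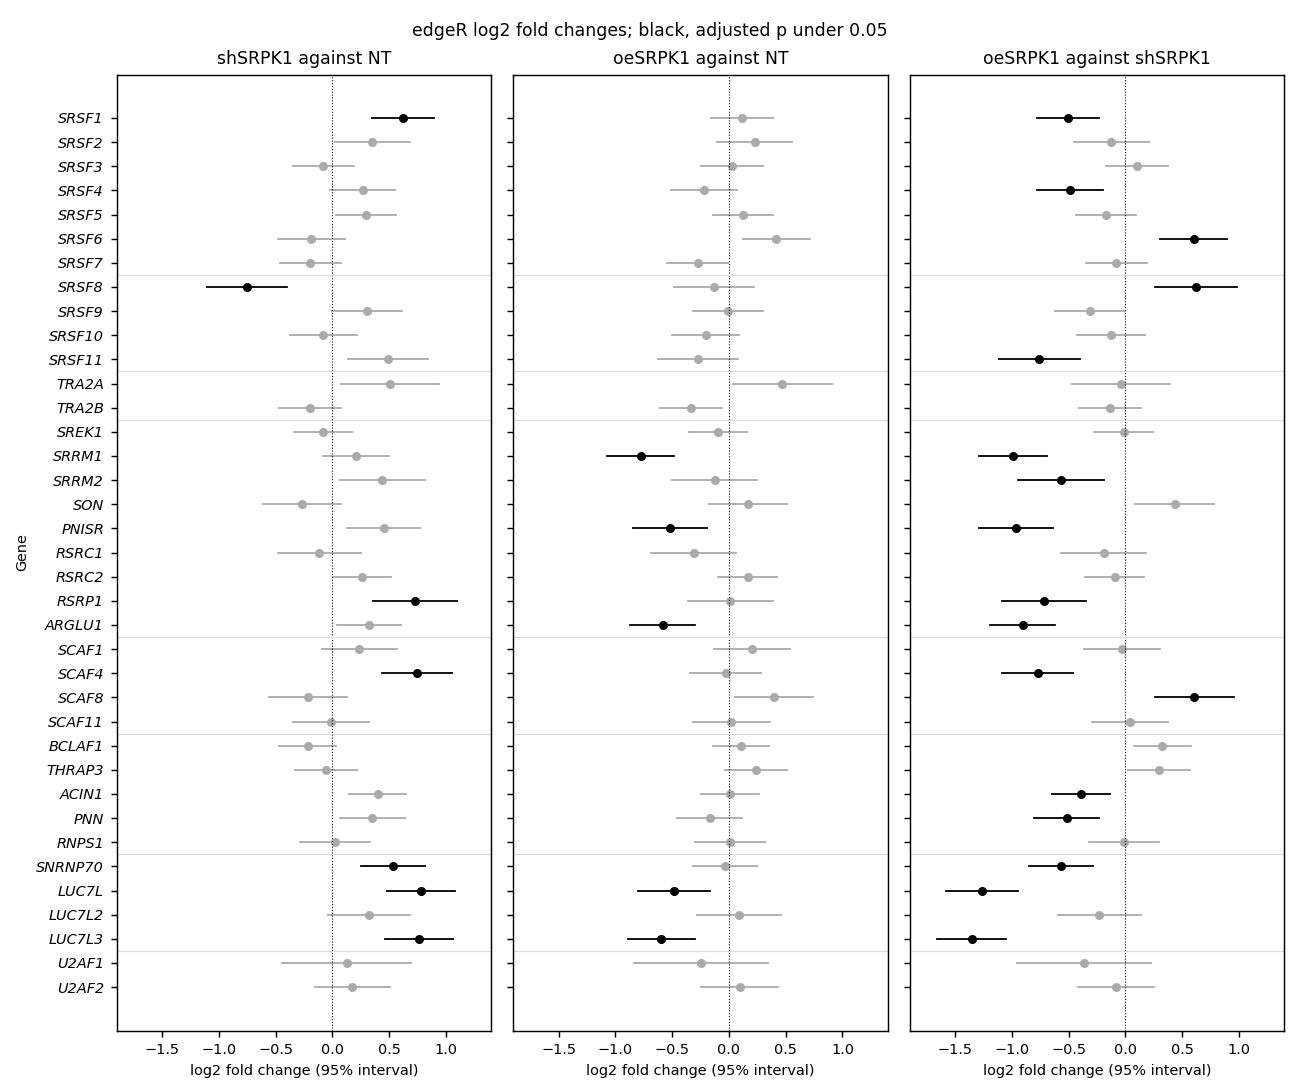
Log2 fold changes of the 37 tested members with 95% intervals from the edgeR fit to all 6 libraries, one panel a comparison, with calls in black. The black points lie right of 0 for 6 genes and left for 1 in shSRPK1 against NT, left for 5 in oeSRPK1 against NT, and left for 14 and right for 3 in oeSRPK1 against shSRPK1.

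LUC7L3 and LUC7L, relatives of a yeast U1 snRNP protein that helps choose the splice donor site, had the largest differences between oeSRPK1 and shSRPK1 among the tested members. LUC7L3 (ENSG00000108848.14, chr17:50719544-50756213 in GRCh38, plus strand) had 326 and 326 normalised CPM in oeSRPK1, 862 and 808 in shSRPK1 and 461 and 525 in NT. Both oeSRPK1 libraries lay below both NT libraries, and both shSRPK1 libraries lay above them. LUC7L3 fell in oeSRPK1 against NT (log2 fold change -0.60 ± 0.13, edgeR adjusted p = 0.0174), rose in shSRPK1 against NT (log2 fold change 0.76 ± 0.13, edgeR adjusted p = 0.0169), and in oeSRPK1 stood at 0.391-fold (95% interval 0.317 to 0.482) of its shSRPK1 level (edgeR adjusted p = 0.00153). The last difference was past the threshold in all 15 alternative settings. LUC7L (ENSG00000007392.15, chr16:188969-229463, minus strand) had the same order of groups, with 28.7 and 31.8 normalised CPM in oeSRPK1, 67.0 and 77.4 in shSRPK1 and 39.6 and 44.4 in NT. LUC7L fell in oeSRPK1 against NT (log2 fold change -0.49 ± 0.14, edgeR adjusted p = 0.0409) and rose in shSRPK1 against NT (log2 fold change 0.78 ± 0.13, edgeR adjusted p = 0.0162), and between the transfected groups its difference was -1.27 ± 0.14 on the log2 scale (edgeR adjusted p = 0.00199). LUC7L and LUC7L3 were the only members called in all 3 comparisons. The third paralog, LUC7L2, had 38.5 and 34.9 normalised CPM in oeSRPK1, 37.3 and 49.7 in shSRPK1 and 34.8 and 34.7 in NT, and no comparison passed the threshold for it. Its log2 fold change in oeSRPK1 against shSRPK1 was -0.23 (95% interval -0.60 to 0.13), an interval that does not reach the values of LUC7L and LUC7L3. The difference between paralogs was not tested itself, and 23.8% of the exon bases of LUC7L2 are shared with other annotated genes, including a read-through gene. SNRNP70, the U1 snRNP protein whose arginine-rich tail contacts SR proteins, had 166 and 175 normalised CPM in oeSRPK1, 247 and 259 in shSRPK1 and 162 and 188 in NT. It rose in shSRPK1 against NT (log2 fold change 0.53 ± 0.12, edgeR adjusted p = 0.0365) and was lower in oeSRPK1 than in shSRPK1 (log2 fold change -0.57 ± 0.12, edgeR adjusted p = 0.0165), and its oeSRPK1 libraries lay within the range of the NT libraries.

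The bases just before the annotated starts of 4 genes are given because they show the promoters of the pair that moved together (LUC7L3 and LUC7L), of the classical SR gene that was higher in oeSRPK1 than in shSRPK1 (SRSF6) and of the one that rose with the hairpin (SRSF1). They are from RefSeq (GRCh38.p14), 5′ to 3′ on the gene's strand, cut to the bases upstream of all annotated exons, with matches to the motifs searched in capitals on either strand. The stretches lie at chr17:50719353-50719543 (plus strand), chr16:229464-229699 (minus strand), chr20:43457646-43457895 (plus strand) and chr17:58007347-58007496 (minus strand).
LUC7L3: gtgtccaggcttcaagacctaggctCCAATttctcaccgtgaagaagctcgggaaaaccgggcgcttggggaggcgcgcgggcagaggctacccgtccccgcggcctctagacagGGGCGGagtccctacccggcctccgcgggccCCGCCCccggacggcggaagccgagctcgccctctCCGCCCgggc
LUC7L: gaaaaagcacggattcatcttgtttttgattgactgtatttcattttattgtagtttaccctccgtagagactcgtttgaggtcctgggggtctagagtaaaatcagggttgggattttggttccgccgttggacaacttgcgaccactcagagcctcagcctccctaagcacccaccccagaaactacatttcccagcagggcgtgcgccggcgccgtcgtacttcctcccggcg
SRSF6: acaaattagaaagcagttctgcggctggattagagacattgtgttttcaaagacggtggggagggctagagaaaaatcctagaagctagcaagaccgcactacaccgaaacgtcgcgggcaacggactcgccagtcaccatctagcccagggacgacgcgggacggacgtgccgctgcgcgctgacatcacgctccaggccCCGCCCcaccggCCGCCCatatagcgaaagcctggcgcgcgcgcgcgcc
SRSF1: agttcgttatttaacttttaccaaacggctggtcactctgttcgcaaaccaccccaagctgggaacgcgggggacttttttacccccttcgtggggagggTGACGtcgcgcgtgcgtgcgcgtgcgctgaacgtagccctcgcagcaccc
The LUC7L3 stretch held 1 CCAAT box and 3 GC boxes, that of LUC7L none of the motifs, that of SRSF6 2 GC boxes and that of SRSF1 1 CRE core. Over the 48 promoter windows of 300 bases (250 before and 50 after a start) that RefSeq gave for 36 members, the GC box (GGGCGG) was found in 60.4%, against 45.0% of all 35116 windows. The CRE core (TGACG) was found in 47.9% of the members' windows, against 24.6% of all. The ETS motif (CCGGAAG) was in 18.8% against 10.3%, the YY1 motif (ATGGCGG) in 20.8% against 5.55%, CCAAT in 29.2% against 34.6%, TATAAA in 8.33% against 11.5% and a kB-like motif (GGGA and CC spaced by 4 bases) in 29.2% against 25.6%. The interferon-response-like motif (2 copies of GAAA spaced by 2 bases) was in 0 member windows against 3.57% of all, and the AP-1 motif (TGANTCA) in 0 against 7.71%. Both strands were searched, and matches of different motifs may overlap. Matches were not tested, and several windows can belong to 1 gene.

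Among the 7 classical SR proteins, which carry the family's defining architecture, SRSF1, SRSF4 and SRSF6 were called in at least 1 comparison. SRSF1, the founding member and a well studied SRPK1 substrate, had 232 and 239 normalised CPM in oeSRPK1, 348 and 321 in shSRPK1 and 209 and 226 in NT. Both shSRPK1 libraries stood above the other 4, and SRSF1 rose in shSRPK1 against NT (log2 fold change 0.62 ± 0.12, edgeR adjusted p = 0.0217) and was lower in oeSRPK1 than in shSRPK1 (log2 fold change -0.51 ± 0.12, edgeR adjusted p = 0.0212). SRSF4, one of the longest classical members, had 75.0 and 81.9 normalised CPM in oeSRPK1, 119.7 and 99.5 in shSRPK1 and 90.6 and 91.7 in NT. Its oeSRPK1 level was below that of shSRPK1 (log2 fold change -0.49 ± 0.13, edgeR adjusted p = 0.0302), and neither comparison with NT passed the threshold. SRSF6 had 352 and 339 normalised CPM in oeSRPK1, 209 and 247 in shSRPK1 and 253 and 266 in NT, and ran the other way, with both oeSRPK1 libraries above all others. It was higher in oeSRPK1 than in shSRPK1 (log2 fold change 0.60 ± 0.13, edgeR adjusted p = 0.0157), while against NT its log2 fold change of 0.42 ± 0.13 did not pass in edgeR (adjusted p = 0.0532, with 5 of the 15 alternative settings past the threshold and adjusted p from 0.00165 to 0.322 over them).

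The other classical members were not called in any comparison. SRSF2, which marks nuclear speckles, had 207 and 219 normalised CPM in oeSRPK1, 261 and 202 in shSRPK1 and 178 and 186 in NT. SRSF3, the shortest of them and an adaptor for mRNA export, had 214 and 233 normalised CPM in oeSRPK1, 214 and 201 in shSRPK1 and 228 and 210.3 in NT. SRSF5 had 220.1 and 214 normalised CPM in oeSRPK1, 250.3 and 238 in shSRPK1 and 191 and 208 in NT. For SRSF3 the libraries of the groups overlapped, and the log2 fold change of oeSRPK1 against shSRPK1 was 0.10 (95% interval -0.17 to 0.38). SRSF7, an export adaptor with a zinc knuckle, had 122 and 131 normalised CPM in oeSRPK1, 125 and 142 in shSRPK1 and 152 and 153 in NT. All 4 transfected libraries of SRSF7 lay below both NT libraries, with log2 fold changes of -0.28 (95% interval -0.54 to -0.01) in oeSRPK1 and -0.19 (95% interval -0.46 to 0.07) in shSRPK1, neither past the threshold.

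**Figure D4:**
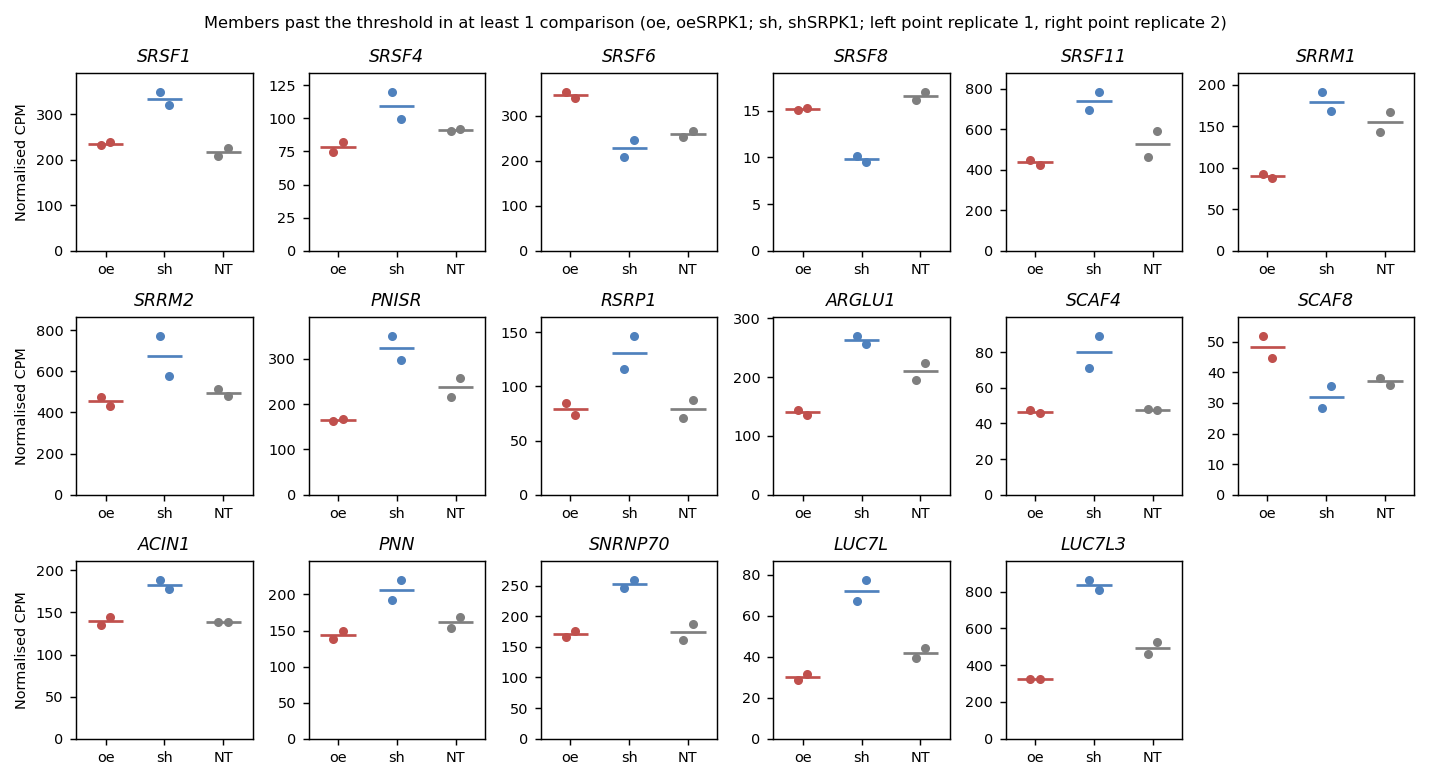
Normalised CPM (linear axes from 0) of the 17 members called in at least 1 comparison, with a point a library and a bar at the mean of the 2 libraries of each group. Both oeSRPK1 points lie below both shSRPK1 points in 14 panels and above them in those of SRSF6, SRSF8 and SCAF8.

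Of the other SRSF genes, SRSF8 and SRSF11 were called. SRSF8, an SRSF2-like gene that arose from a processed copy of SRSF2, had 15.0 and 15.2 normalised CPM in oeSRPK1, 10.1 and 9.47 in shSRPK1 and 16.1 and 16.9 in NT. Both shSRPK1 libraries were below the other 4. SRSF8 fell in shSRPK1 against NT (log2 fold change -0.75 ± 0.15, edgeR adjusted p = 0.0254) and was higher in oeSRPK1 than in shSRPK1 (log2 fold change 0.62 ± 0.16, edgeR adjusted p = 0.0266). Because reads from sequence shared with SRSF2 could have been lost or split, its level is uncertain. SRSF11, an SR-like protein that binds the large U2AF subunit, had 451 and 424 normalised CPM in oeSRPK1, 698 and 784 in shSRPK1 and 465 and 590.4 in NT. Its oeSRPK1 level was below that of shSRPK1 (log2 fold change -0.76 ± 0.15, edgeR adjusted p = 0.0137), and both shSRPK1 libraries lay above both NT libraries without passing the threshold (edgeR log2 fold change 0.49, 95% interval 0.14 to 0.84). SRSF9 and SRSF10, the second of them a repressor of splicing in its dephosphorylated form, ranged from 113 to 162 and from 153 to 195 normalised CPM over the 6 libraries and were not called.

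TRA2A and TRA2B, sequence-specific activators named for the Drosophila gene transformer-2, were not called in any comparison. TRA2A ranged from 75.0 to 143 normalised CPM, and its log2 fold changes against NT were 0.47 (95% interval 0.04 to 0.91) in oeSRPK1 and 0.51 (95% interval 0.08 to 0.94) in shSRPK1. TRA2B ranged from 182 to 238 normalised CPM, with log2 fold changes of -0.33 (95% interval -0.60 to -0.06) in oeSRPK1 and -0.20 (95% interval -0.47 to 0.07) in shSRPK1 against NT. In NT, TRA2A was lower and TRA2B higher than in each of the 4 transfected libraries, and none of these differences passed the edgeR threshold.

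The nuclear matrix and speckle proteins held 5 of the 14 genes that were lower in oeSRPK1 than in shSRPK1, of 9 tested. These calls were 55.6% of the 9 genes. In that comparison 45.9% of all tested members and 22.8% of all tested genes were called (11.3% lower). SRRM1, a splicing coactivator that bridges SR proteins on exons, had 92.2 and 88.2 normalised CPM in oeSRPK1, 191 and 168 in shSRPK1 and 143 and 166 in NT. Both oeSRPK1 libraries were below all others, and SRRM1 fell in oeSRPK1 against NT (log2 fold change -0.78 ± 0.13, edgeR adjusted p = 0.00672) and was lower than in shSRPK1 (log2 fold change -0.99 ± 0.13, edgeR adjusted p = 0.00333). PNISR, a partner of pinin, had 164 and 168 normalised CPM in oeSRPK1, 350.0 and 298 in shSRPK1 and 215 and 259 in NT. ARGLU1, a splicing modulator and nuclear receptor coactivator, had 145 and 135 normalised CPM in oeSRPK1, 269 and 255 in shSRPK1 and 195 and 224 in NT. Both genes showed the same order of groups as LUC7L3, lowest in oeSRPK1 and highest in shSRPK1 with no overlap. That order was not particular to them, as LUC7L, SRRM1, SRRM2, SRSF4, SRSF11 and PNN showed it too. PNISR fell in oeSRPK1 against NT (log2 fold change -0.52 ± 0.14, edgeR adjusted p = 0.0375) and was lower than in shSRPK1 (log2 fold change -0.97 ± 0.14, edgeR adjusted p = 0.00472). ARGLU1 also fell in oeSRPK1 against NT (log2 fold change -0.58 ± 0.12, edgeR adjusted p = 0.0158) and was lower than in shSRPK1 (log2 fold change -0.91 ± 0.12, edgeR adjusted p = 0.00373). In shSRPK1 against NT, neither passed the threshold, at 0.45 (95% interval 0.13 to 0.77) for PNISR and 0.32 (95% interval 0.04 to 0.60) for ARGLU1 on the log2 scale.

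SRRM2, a scaffold of nuclear speckles, had 477 and 432 normalised CPM in oeSRPK1, 770.2 and 575 in shSRPK1 and 512 and 479.8 in NT, and was lower in oeSRPK1 than in shSRPK1 (log2 fold change -0.57 ± 0.16, edgeR adjusted p = 0.0424). Its shSRPK1 libraries differed more from each other than its oeSRPK1 libraries did from NT. SON, the other scaffold of the speckle, went against SRRM2 in order, with 436 and 400.4 normalised CPM in oeSRPK1, 344 and 277 in shSRPK1 and 399 and 348 in NT. No comparison of SON passed, and that of oeSRPK1 against shSRPK1 gave 0.43 (95% interval 0.09 to 0.78) on the log2 scale (edgeR adjusted p = 0.0716). RSRP1 had 84.5 and 73.9 normalised CPM in oeSRPK1, 116 and 146 in shSRPK1 and 70.5 and 87.3 in NT. It rose in shSRPK1 against NT (log2 fold change 0.73 ± 0.16, edgeR adjusted p = 0.0313) and was lower in oeSRPK1 than in shSRPK1 (log2 fold change -0.72 ± 0.16, edgeR adjusted p = 0.0188). Of its exon bases 11.3% overlap other genes, among them TMEM50A on the opposite strand, which itself was higher in oeSRPK1 than in NT (log2 fold change 0.79 ± 0.11, edgeR adjusted p = 0.00368). SREK1, a regulator of other SR proteins, had 123 to 139 normalised CPM over the 6 libraries, RSRC2 85.9 to 113 and RSRC1 25.3 to 35.3, and none of the 3 was called.

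The SCAF proteins carry a domain that binds the tail of RNA polymerase II, except SCAF11, a spliceosome assembly factor. SCAF4, which with SCAF8 keeps transcripts from ending early, had 47.5 and 45.8 normalised CPM in oeSRPK1, 71.1 and 88.8 in shSRPK1 and 47.9 and 47.5 in NT. It rose in shSRPK1 against NT (log2 fold change 0.74 ± 0.13, edgeR adjusted p = 0.0196) and was lower in oeSRPK1 than in shSRPK1 (log2 fold change -0.77 ± 0.14, edgeR adjusted p = 0.00824). Its oeSRPK1 and NT libraries all lay between 45.8 and 47.9 normalised CPM, and its log2 fold change in oeSRPK1 against NT was -0.03 (95% interval -0.35 to 0.29). SCAF8 moved in the opposite direction to SCAF4, with 51.7 and 44.7 normalised CPM in oeSRPK1, 28.4 and 35.6 in shSRPK1 and 38.1 and 35.9 in NT. It was higher in oeSRPK1 than in shSRPK1 (log2 fold change 0.61 ± 0.15, edgeR adjusted p = 0.026), and against NT it did not pass in oeSRPK1 (log2 fold change 0.39, 95% interval 0.05 to 0.74). SCAF8 shares 13.0% of its exon bases with TIAM2, which was itself at 11.2 to 17.9 normalised CPM. SCAF1 ranged from 36.6 to 50.1 and SCAF11 from 105 to 135.5 normalised CPM, and neither was called.

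ACIN1, RNPS1 and PNN are core parts of the ASAP and PSAP complexes, which sit on spliced mRNA beside the exon junction complex. ACIN1 had 135 and 144 normalised CPM in oeSRPK1, 188 and 178 in shSRPK1 and 139 and 138 in NT. PNN had 138 and 149.9 normalised CPM in oeSRPK1, 192 and 219.8 in shSRPK1 and 154 and 169 in NT. In both genes the shSRPK1 libraries stood above the other 4, and both were lower in oeSRPK1 than in shSRPK1, ACIN1 at a log2 fold change of -0.39 ± 0.11 (edgeR adjusted p = 0.0384) and PNN at a log2 fold change of -0.52 ± 0.12 (edgeR adjusted p = 0.0237). Against NT, ACIN1 came near the threshold in shSRPK1 (log2 fold change 0.40, 95% interval 0.15 to 0.65, edgeR adjusted p = 0.0578) and did not pass it. RNPS1, a subunit of both complexes, ranged from 86.1 to 108 normalised CPM and had log2 fold changes of 0.01 (95% interval -0.30 to 0.32) in oeSRPK1 and 0.02 (95% interval -0.29 to 0.33) in shSRPK1 against NT. BCLAF1 and THRAP3, related proteins of mRNA processing, lay higher in both oeSRPK1 libraries than in both shSRPK1 libraries without passing. Their log2 fold changes in oeSRPK1 against shSRPK1 were 0.32 (95% interval 0.08 to 0.57) for BCLAF1 and 0.29 (95% interval 0.02 to 0.57) for THRAP3.

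The U2AF heterodimer recognises the splice acceptor site. U2AF2, the large subunit, ranged from 92.7 to 120.1 normalised CPM and was not called. U2AF1, the small subunit, had only 24 to 228 reads a library, or 6.20 to 13.0 normalised CPM. An almost identical copy of U2AF1 lies on the same chromosome of the assembly (chr21:6484623-6499261 in GRCh38), and its identifier stood at 0 in all 6 libraries. Counting can lose or split reads that match both copies, so the level of U2AF1 is uncertain.

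For 21 of the 39 members no exon base is shared with another annotated gene, and 20 of these were tested. Among them 3 were higher and 1 lower in shSRPK1 against NT, 0 higher and 3 lower in oeSRPK1 against NT (2 higher and 5 lower at an unadjusted p under 0.05 in edgeR, 1 higher and 2 lower in DESeq2, 1 higher and 3 lower in limma-voom), and 2 higher and 6 lower in oeSRPK1 against shSRPK1. The calls came to 20.0%, 15.0% and 40.0% of these 20 members in that order, where 9.18%, 20.6% and 22.8% of all tested genes were called. Overlap was widest for SRSF1, with 60.7% of its exon bases in loci that had 84 reads of their own in all 6 libraries. It was 46.2% for SRSF9, mostly with GATC at 24.7 to 37.4 normalised CPM, and 36.7% for SRSF2, mostly with MFSD11 at 10.9 to 18.7 normalised CPM. Whether the counting used strand is not given in the sources used here, so reads of genes that overlap on opposite strands cannot be told apart.

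Genes that act with the SR family were looked at in 6 lists, fixed with earlier results of these data known. Of the kinases and phosphatases that act on SR proteins, 22 were tested, the targeted SRPK1 among them. In oeSRPK1 against NT 5 were higher and 1 lower, in shSRPK1 against NT 6 were higher and 0 lower (6 and 0 at an unadjusted p under 0.05 in edgeR, 6 and 0 in DESeq2, 5 and 0 in limma-voom), and in oeSRPK1 against shSRPK1 4 were higher and 4 lower. In that order 27.3%, 27.3% and 36.4% of the list were called, where 20.6%, 9.18% and 22.8% of all tested genes were. CLK1, a nuclear kinase of SR proteins, had 114 and 119 normalised CPM in oeSRPK1, 208 and 179.6 in shSRPK1 and 72.3 and 86.6 in NT. It was higher than in NT both in oeSRPK1 (log2 fold change 0.55 ± 0.14, edgeR adjusted p = 0.0256) and in shSRPK1 (log2 fold change 1.29 ± 0.14, edgeR adjusted p = 0.00396), and lower in oeSRPK1 than in shSRPK1 (log2 fold change -0.73 ± 0.13, edgeR adjusted p = 0.00953). CLK3, its relative, rose in shSRPK1 against NT (log2 fold change 0.84 ± 0.18, edgeR adjusted p = 0.0276). PPP1R10, a nuclear targeting subunit of protein phosphatase 1, and CDK13, a kinase of the RNA polymerase II tail, rose in oeSRPK1 against NT, PPP1R10 at a log2 fold change of 1.02 ± 0.18 (edgeR adjusted p = 0.00908) and CDK13 at a log2 fold change of 0.61 ± 0.12 (edgeR adjusted p = 0.0125). PPP1R10 also rose in shSRPK1 against NT (log2 fold change 0.84 ± 0.18, edgeR adjusted p = 0.0294), and between the transfected groups its difference of 0.17 (95% interval -0.24 to 0.59) on the log2 scale did not pass the threshold. PRPF4B, a kinase of the spliceosome, was lower in oeSRPK1 than in shSRPK1 (log2 fold change -0.57 ± 0.11, edgeR adjusted p = 0.0119).

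Among 11 tested genes of nuclear import and export, 2 were higher in oeSRPK1 against NT, 1 was higher in shSRPK1 against NT, and 3 were higher and 1 lower in oeSRPK1 against shSRPK1. The called shares of 18.2%, 9.09% and 36.4% stand beside 20.6%, 9.18% and 22.8% of all tested genes, so against NT the list was near the overall share. THOC1, of the THO complex that couples transcription to export, rose in shSRPK1 against NT (log2 fold change 0.86 ± 0.12, edgeR adjusted p = 0.00983). TNPO3, the import receptor of SR proteins, and CHTOP, an export adaptor, were higher in oeSRPK1 than in shSRPK1, TNPO3 at a log2 fold change of 0.47 ± 0.11 (edgeR adjusted p = 0.0194) and CHTOP at a log2 fold change of 0.64 ± 0.13 (edgeR adjusted p = 0.0118). DDX39A, an RNA helicase of export, rose in oeSRPK1 against NT (log2 fold change 0.73 ± 0.15, edgeR adjusted p = 0.0141). Its close paralog DDX39B had at most 5 reads in any library and was not tested. Whether reads of DDX39B were lost in counting, as can happen where genes share sequence, was not looked at, so its level is uncertain. Of the 8 genes of the exon junction complex, edgeR, DESeq2 and limma-voom called 0 in any comparison, with 1 at an unadjusted p under 0.05 in edgeR in oeSRPK1 against NT, 1 in shSRPK1 against NT and 2 in oeSRPK1 against shSRPK1. Of all tested genes 20.6%, 9.18% and 22.8% were called in that order, and 8 genes are few to set beside those shares.

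Of 14 nonsense-mediated decay factors, 4 were higher in oeSRPK1 against NT and 2 in oeSRPK1 against shSRPK1. In shSRPK1 against NT edgeR, DESeq2 and limma-voom called 0, with 3 higher at an unadjusted p under 0.05 in edgeR. Of the list 28.6% were called in oeSRPK1 against NT, 0% in shSRPK1 against NT and 14.3% in oeSRPK1 against shSRPK1. Of all tested genes 20.6%, 9.18% and 22.8% were called in that order. PNRC2, a decapping adaptor, and SMG6, the endonuclease of the pathway, rose in oeSRPK1 against NT, PNRC2 at a log2 fold change of 0.85 ± 0.13 (edgeR adjusted p = 0.00567) and SMG6 at a log2 fold change of 0.61 ± 0.13 (edgeR adjusted p = 0.0151). Of 28 hnRNPs, which often oppose SR proteins at exons, 1 was higher and 1 lower in oeSRPK1 against NT, 2 were higher and 1 lower in shSRPK1 against NT, and 2 were higher and 3 lower in oeSRPK1 against shSRPK1. These were 7.14%, 10.7% and 17.9% of the hnRNPs, where 20.6%, 9.18% and 22.8% of all tested genes were called. In oeSRPK1 against NT, HNRNPM rose (log2 fold change 0.63 ± 0.11, edgeR adjusted p = 0.00858) and HNRNPAB fell (log2 fold change -0.59 ± 0.13, edgeR adjusted p = 0.0178). PTBP2, a splicing repressor of the PTB family, rose in shSRPK1 against NT (log2 fold change 0.60 ± 0.13, edgeR adjusted p = 0.0282). Of 26 other proteins of the U1 and U2 snRNPs, 1 was lower in oeSRPK1 against NT, 1 higher in shSRPK1 against NT, and 1 higher and 2 lower in oeSRPK1 against shSRPK1. The called shares of 3.85%, 3.85% and 11.5% lay below those of all tested genes in each comparison. SNRPA, a U1 protein, rose in shSRPK1 against NT (log2 fold change 0.65 ± 0.11, edgeR adjusted p = 0.0175), and SNRPA1, a U2 protein, was lower in oeSRPK1 than in shSRPK1 (log2 fold change -0.65 ± 0.11, edgeR adjusted p = 0.00836). Over all 109 tested genes of the 6 lists, 12 were higher and 3 lower in oeSRPK1 against NT, 10 and 1 in shSRPK1 against NT, and 12 and 10 in oeSRPK1 against shSRPK1. That made 13.8%, 10.1% and 20.2% of the 109 genes, near or below the 20.6%, 9.18% and 22.8% of all tested genes.

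How the members' calls depend on single libraries differed between the groups. Leaving out an oeSRPK1 or an NT library lowered the count of calls in every comparison, to 0 or 1 against NT. Leaving out a shSRPK1 library raised it in every comparison, and the spread within shSRPK1 was the widest of the 3 groups. Over all tested genes, the standard deviation of replicate differences in log2 CPM was 0.451 in oeSRPK1, 0.552 in shSRPK1 and 0.313 in NT. These values include counting error.

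**Figure D5:**
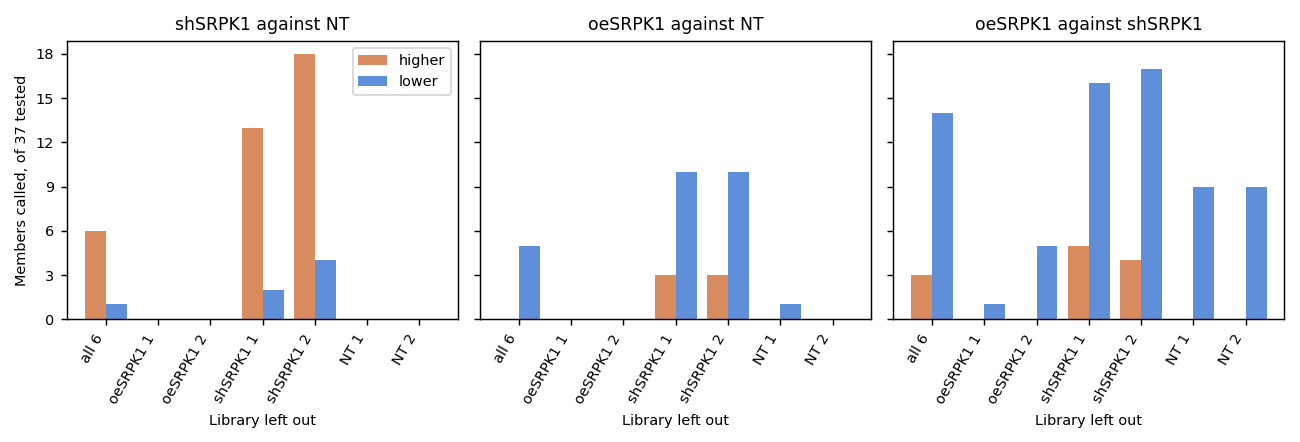
Number of the 37 tested members called higher (orange) or lower (blue) in each comparison with all 6 libraries and with 1 library left out, a lone library being assumed to vary like the other groups. Without oeSRPK1 1 the panels from left to right held 0, 0 and 1 calls, and without shSRPK1 2 they held 22, 13 and 21.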

How the data were processed

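The authors' deposited values were whole-number counts of reads per gene, not normalised, in 1 table a library. Per the submitters' processing notes, FastQC, Trimmomatic and STAR 2.5.3 were used with hg38, and the counting tool, annotation release and strand setting are not given in the sources used here. At the end of a table stood 5 summary entries without a gene, and these were dropped before scaling and testing. Reads outside annotated genes were 8.60% and 8.13% of the total in oeSRPK1, 9.81% and 11.1% in shSRPK1 and 8.22% and 9.31% in NT. For 56321 identifiers the symbol was looked up in a gene name table, for 432 it was found in GENCODE 29 alone, and 3730 had none.

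Genes were kept by filterByExpr of edgeR 4.0.16 in R 4.3.3 (minimum count 10, minimum total 15), which left 14732 genes with 99.8% of gene reads. TMM scaled these counts, which were tested with glmQLFit (robust) and glmQLFTest on all 6 libraries, with Benjamini-Hochberg adjustment over all tested genes and calls under 0.05. The biological coefficient of variation was 14.5%. The steps were tested on simulated data with the same spread in every group. The real groups differed in spread, and the effect of that was not simulated. Floors cover counting error only. Alternatives were upper-quartile scaling, DESeq2 size factors, plain totals, no filter, a stricter filter (CPM of 5 in 2 libraries), DESeq2 1.42.0, limma-voom (limma 3.58.1), a block for the replicate number, a fit to the groups compared alone and leave-one-out fits.

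The members, lists, markers, motifs and tests were chosen with earlier results of these data known. Values in every library are given for members called at least once and for SRSF1 to SRSF7, and up to 2 called genes with the smallest adjusted p are named from each pathway list, some once for several comparisons. Exon overlaps are those of GENCODE 29. Protein sequences were not used here.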

Additional observations from a re-analysis of the deposited data

How the results depend on the processing

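The replicate numbers did not pair the libraries (correlations of deviations of -0.02 in oeSRPK1 against NT, 0.01 in shSRPK1 against NT and 0.02 in oeSRPK1 against shSRPK1). With the replicate number as a block, 4 of 5, 6 of 7 and 15 of 17 member calls were kept in those comparisons, 6 pathway genes were called in shSRPK1 against NT (11 without the block), and SRPK1 in oeSRPK1 against shSRPK1 kept its log2 fold change of 0.50 with an edgeR adjusted p of 0.0609. With no filter on low counts, shSRPK1 against NT gave 11 members, 17 pathway genes and 2616 genes in all. With only the libraries compared in the fit, members called were 14 (4 higher, 10 lower) in oeSRPK1 against NT, 0 in shSRPK1 against NT (11 at an unadjusted p under 0.05) and 9 (0 higher, 9 lower) in oeSRPK1 against shSRPK1. All genes called were then 6331, 129 and 1505, pathway genes 41, 1 and 6, and SRPK1 stood at 0.27 (edgeR adjusted p = 0.0232) in oeSRPK1 against NT and 0.50 (edgeR adjusted p = 0.0920) in oeSRPK1 against shSRPK1.

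Leaving out 1 library at a time, calls ran from 0 to 13, 0 to 22 and 1 to 21 for members in oeSRPK1 against NT, shSRPK1 against NT and oeSRPK1 against shSRPK1, from 293 to 6415, 29 to 4595 and 144 to 6152 for all genes, and from 0 to 40, 0 to 35 and 0 to 50 for pathway genes. SRPK1 ran from 0.17 to 0.38, from -0.37 to -0.062 and from 0.33 to 0.63 on the log2 scale, and it passed the threshold in shSRPK1 against NT without shSRPK1 2 (-0.37) and in oeSRPK1 against NT without shSRPK1 1 (0.27) or shSRPK1 2 (0.26). Plain totals moved the split of calls over all genes to 1363 higher and 1781 lower in oeSRPK1 against NT (1644 and 1392 with TMM) and to 625 and 1062 in shSRPK1 against NT (800 and 552 with TMM), with median shifts of all genes of -0.08 and -0.09. Over the 435 values of the 29 member calls under alternatives, 114 lost the threshold and 0 turned direction. The cause of these changes was not tested, and as the libraries compared did not overlap, a turned direction was hardly possible. Of 82 member fold changes not past the threshold, 24 changed sign in at least 1 setting (none past the threshold with the changed sign) and 37 passed in at least 1. With 2 libraries a group and a gene-level count, isoforms, and changes smaller than the intervals given, could not be resolved.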
